A study of Homo sapiens with 4 samples.

Results

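The 9 functional constant genes of the human immunoglobulin heavy chain locus, IGHM, IGHD, IGHG1, IGHG2, IGHG3, IGHG4, IGHA1, IGHA2 and IGHE, were examined in myeloma cells with and without a BCL7A knockout (KO) construct. They were taken by name from the 56809 gene rows of the count table, and all 9 had a row. The cells were NCI-H929, an established human multiple myeloma line, and all of them expressed the nuclease Cas9. Per the labels' protocols, the KO group (2 libraries) carried a doxycycline-inducible construct against BCL7A, a subunit of SWI/SNF (BAF) chromatin remodellers. The control group (2 libraries) carried a control construct, although its titles and genotype label read wild type. Both groups had 3 days of puromycin and then 24 h of doxycycline at 0.5 ug/ml, and poly(A) RNA was sequenced. Whether replicate libraries were grown as separate cultures is not stated, so each p-value measures only library-to-library spread, which may be technical.

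A heavy chain joins a variable region, built from V, D and J segments, to a constant region that sets the antibody class. The constant genes lie in a row behind the J segments. A naive B cell reads IGHM and IGHD from one long transcript by alternative splicing, and class switch recombination later deletes the genes in between and brings a downstream one, such as an IGHG or IGHA gene, behind the variable region. A plasma cell usually makes antibody of a single class, at very high levels, together with a kappa or a lambda light chain. NCI-H929 is known as a producer of IgA with a kappa light chain, and as a carrier of a translocation that joins the heavy chain locus to NSD2 and FGFR3.

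The constant genes differ in how far short reads can tell them apart, and the sequences printed here were chosen to show that for genes with counts. All come from GENCODE release 29 transcripts of the minus strand of chromosome 14 (GRCh38). IGHD and IGHM normally share a primary transcript. In the opening 60 bases of their first constant exons (chr14:105845618-105845677 and chr14:105856159-105856218), capitals mark the longest run found in any other constant gene or pseudogene of the family, 9 bases in each. The opening 60 bases of IGHE (chr14:105601669-105601728) hold a run of 12 bases, and the hinge exons of IGHD (chr14:105844825-105844926 and chr14:105841961-105842032) hold runs of 14 and 11 bases, marked in the same way.
IGHD first constant exon: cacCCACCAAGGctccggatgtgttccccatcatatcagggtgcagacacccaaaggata
IGHM first constant exon: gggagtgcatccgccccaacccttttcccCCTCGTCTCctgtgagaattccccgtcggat
IGHE first constant exon: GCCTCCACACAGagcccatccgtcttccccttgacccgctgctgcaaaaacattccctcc
IGHD hinge exon 1: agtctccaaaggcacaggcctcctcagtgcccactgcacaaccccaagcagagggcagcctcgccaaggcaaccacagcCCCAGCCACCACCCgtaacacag
IGHD hinge exon 2: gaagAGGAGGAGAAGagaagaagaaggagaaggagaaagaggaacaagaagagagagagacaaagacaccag

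IGHA1 and IGHA2 differ most plainly in the hinge, at the start of their second constant exon (chr14:105708055-105708144 and chr14:105587824-105587874). Capitals in IGHA1 mark the 39 bases that one alignment left without a counterpart in IGHA2; the stretch is repetitive, so that placement is not unique.
IGHA1 hinge: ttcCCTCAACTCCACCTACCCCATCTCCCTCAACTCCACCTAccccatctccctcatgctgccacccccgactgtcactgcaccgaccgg
IGHA2 hinge: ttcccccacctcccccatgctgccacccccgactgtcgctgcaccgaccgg

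The hinge exons of IGHG1 (chr14:105742341-105742385) and IGHG4 (chr14:105625344-105625379) stand for the IgG genes, with capitals on the bases that differ or have no counterpart between them.
IGHG1 hinge: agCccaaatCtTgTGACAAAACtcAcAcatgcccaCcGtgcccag
IGHG4 hinge: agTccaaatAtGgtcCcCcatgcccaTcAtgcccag

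Over whole transcripts, each stretch of 31 bases in IGHD and in IGHM was absent from all other GENCODE genes. In IGHE 75.9% of such stretches were its own, against 52.9% in IGHA1 and 53.2% in IGHA2, which shared the rest with each other. The IgG genes had 31.3% to 38.4% of their own. The aligned transcripts of IGHA1 and IGHA2 were identical at 96.3% of 1071 bases, and those of IGHM and IGHD at 63.0% of 1127. How the authors' counting divided shared reads is not stated. The split of counts within the IgA pair and among the IgG genes is therefore uncertain.

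BCL7A, the targeted gene, had 46 and 44 counts in the KO libraries and 830 and 1014 in control. Scaled to library size with TMM factors, as CPM, that is 1.25 ± 0.0842 against 44.3 ± 1.94 (SD, n = 2, as for every ± below). Gene counts summed to between 38671744 and 40799624 in KO and between 17567202 and 20153596 in control, so the KO libraries were deeper. A gene was called when its adjusted p (edgeR's quasi-likelihood test, Benjamini-Hochberg over all tested genes) was under 0.05, and rose or fell means called higher or lower in KO. By that rule 76.2% of 17885 tested genes were called, 36.4% higher and 39.8% lower. With so many calls a call by itself says little, so levels and sizes are given beside each. Every count of list members that rose or fell is to be read against these 2 shares.

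IGHD, the constant gene of IgD, dominated the control libraries and had no count in KO. Of the 9 genes 5 had enough counts to be tested: IGHA1 and IGHE were called higher, and IGHD, IGHG1 and IGHA2 lower. IGHD and IGHG1 could pass the filter on low counts only through the control libraries, so they had to differ. IGHM, IGHG2, IGHG3 and IGHG4 had at most 7 counts in any library. In both KO libraries 6 of the 9 genes had 0 counts, and 5 of those 6 had counts in control.

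**Figure D1:**
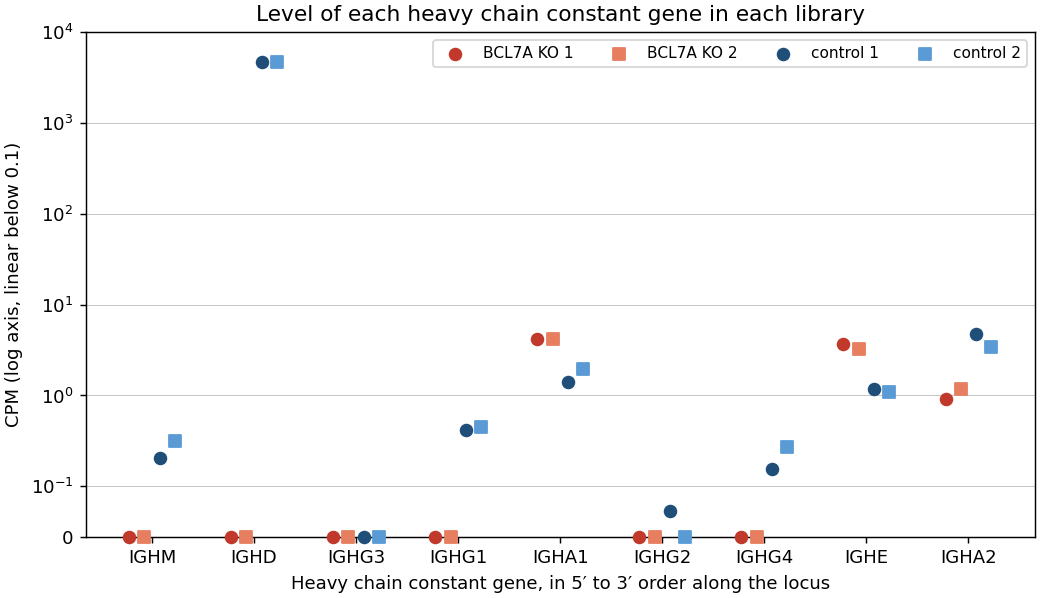
Level of each heavy chain constant gene in CPM (vertical axis, logarithmic above 0.1 and linear below) for the 9 genes in 5′ to 3′ order, with 1 point per library, red shades for BCL7A KO and blue for control. IGHD stands at 4662 and 4703 CPM in control and at 0 in both KO libraries, and no other gene exceeds 5 CPM in any library.

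IGHD (chromosome 14, 105836765 to 105845678) had 90091 and 104372 counts in control replicates 1 and 2, and 0 in both KO libraries. That is 4662 and 4703 CPM in control, where IGHD ranked 12 of 56809 genes by mean CPM. The groups did not overlap. Set against 3 counts over the KO group, which is 0.0416 CPM, IGHD was at least 112506-fold higher in control (adjusted p = 1.26e-41 by edgeR). Because IGHD could pass the filter only through control, the lack of overlap and the call were bound to follow.

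IGHM (105851705 to 105856218), the constant gene of IgM, did not accompany IGHD. It had 4 and 7 counts in control (0.207 and 0.315 CPM) and 0 in both KO libraries. Control thus held 22523 IGHD counts per IGHM count in replicate 1 (95% interval 8796 to 82664, exact Clopper-Pearson) and 14910 in replicate 2 (7236 to 37086). Per kb of exon the ratios were 24672 and 16333. IGHM was at least 6.36-fold higher in control, on 11 counts in all, and was too low to be tested. All intervals and limits on counts cover counting error only.

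The IgG genes were near the limit of detection throughout. IGHG1 (105736343 to 105743071) had 8 and 10 counts in control (0.414 and 0.451 CPM) and 0 in both KO libraries, which makes it at least 10.4-fold higher in control (adjusted p = 2.93e-05 by edgeR). IGHG4 (105620506 to 105626066) had 3 and 6 counts in control and 0 in KO, at least 5.21-fold higher in control. IGHG2 (105639559 to 105644790) had a single count, in control replicate 1. IGHG3 (105764503 to 105771405) had 0 counts in all 4 libraries, so no difference was detectable. Because these genes share much sequence they were also summed. The sum was 12 and 16 counts in control and 0 in KO, at least 16.2-fold higher in control. Like IGHG1, the sum could pass the filter only through control, so its call (adjusted p = 1.58e-06 by edgeR) was bound to follow.

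The IgA genes were called in opposite directions. IGHA1 (105703995 to 105708665) had 146 and 154 counts in KO and 27 and 43 in control. These are 4.16 and 4.17 CPM against 1.40 and 1.94 CPM. The pooled ratio of KO to control was 2.47 (95% counting interval 1.90 to 3.25; log2 fold change 1.31, SE 0.21, adjusted p = 3.13e-06 by edgeR). IGHA2 (105583731 to 105588395), the last gene of the row, had 32 and 44 counts in KO and 93 and 75 in control. At 0.911 and 1.19 CPM against 4.81 and 3.38 CPM, it was 3.84-fold higher in control (log2 fold change -1.95, SE 0.25, adjusted p = 6.21e-08 by edgeR).

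Added together, the IgA pair was not called. The sum was 178 and 198 counts in KO and 120 and 118 in control, or 5.07 and 5.36 CPM against 6.21 and 5.32 CPM, so the groups overlapped. Its log2 fold change was -0.14 (SE 0.15, adjusted p = 0.407 by edgeR), with a pooled ratio of 0.910 and a counting interval of 0.772 to 1.08. IGHA1 made up 82.0% (exact 95% interval 75.6% to 87.4%) and 77.8% (71.3% to 83.4%) of the pair in KO. In control it made up 22.5% (15.4% to 31.02%) and 36.4% (27.8% to 45.8%). The groups thus differed in the split between the pair, and no difference in their joint level passed the test. The part of shared reads in that split was not tested.

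IGHE (105597691 to 105601728), the constant gene of IgE, was the second most abundant of the 9 genes in KO. It had 129 and 121 counts there and 23 and 24 in control, which is 3.67 and 3.27 CPM against 1.19 and 1.08 CPM. The pooled ratio was 3.06 (counting interval 2.24 to 4.28, log2 fold change 1.61, SE 0.24, adjusted p = 6.96e-07 by edgeR). Of its stretches of 31 bases, 23.8% also occur in the pseudogene IGHEP1, which had 1 count in KO replicate 1 and none elsewhere. There were 1.13 and 1.27 IGHA1 counts per IGHE count in KO and 1.17 and 1.79 in control.

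**Figure D2:**
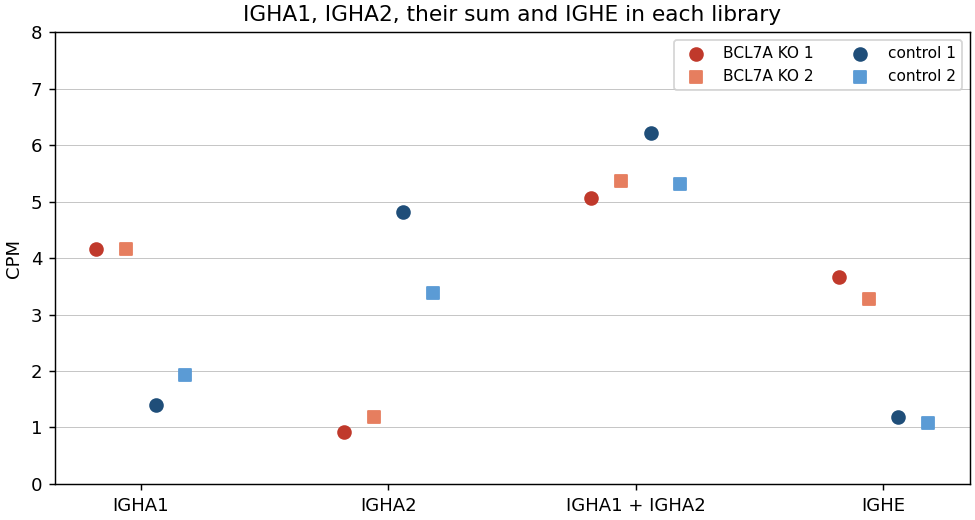
CPM (vertical axis, linear from 0) of IGHA1, IGHA2, their sum and IGHE, with 1 point per library, red shades for BCL7A KO and blue for control. IGHA1 is higher in KO and IGHA2 in control, while the sums, 5.07 and 5.36 against 6.21 and 5.32, overlap.

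Ordered by level per kb of exon, KO had IGHA1 first (2.92 and 2.93 CPM per kb), then IGHE (2.27 and 2.02) and IGHA2 (0.637 and 0.833), and neighbours did not overlap. Control had IGHD first (2729 and 2753 CPM per kb), then IGHA2 (3.37 and 2.36), IGHA1 (0.982 and 1.36) and IGHE (0.736 and 0.668). Next came IGHG1 (0.1499 and 0.163) and IGHM (0.111 and 0.169), which overlapped each other. These orders rest on 2 libraries a group and were not tested: an exact two-sided permutation test of 2 against 2 cannot go below p = 0.333.

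As shares of the counts of the 9 genes, control was almost entirely IGHD, at 99.82% of 90250 counts in replicate 1 (exact 95% interval 99.79% to 99.85%) and 99.84% of 104537 in replicate 2 (99.82% to 99.87%). In KO, IGHA1 was 47.6% of 307 counts (41.9% to 53.3%) and 48.3% of 319 (42.7% to 53.9%). IGHE was 42.02% (36.4% to 47.8%) and 37.9% (32.6% to 43.5%), and IGHA2 was 10.4% (7.24% to 14.4%) and 13.8% (10.2% to 18.1%). The 0 counts of IGHD in KO allow it a share of up to 0.977% and 0.940% of these small totals. Among the 8 genes other than IGHD, IGHA2 led in control, with 58.5% of 159 counts (50.4% to 66.2%) and 45.5% of 165 (37.7% to 53.4%).

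**Figure D3:**
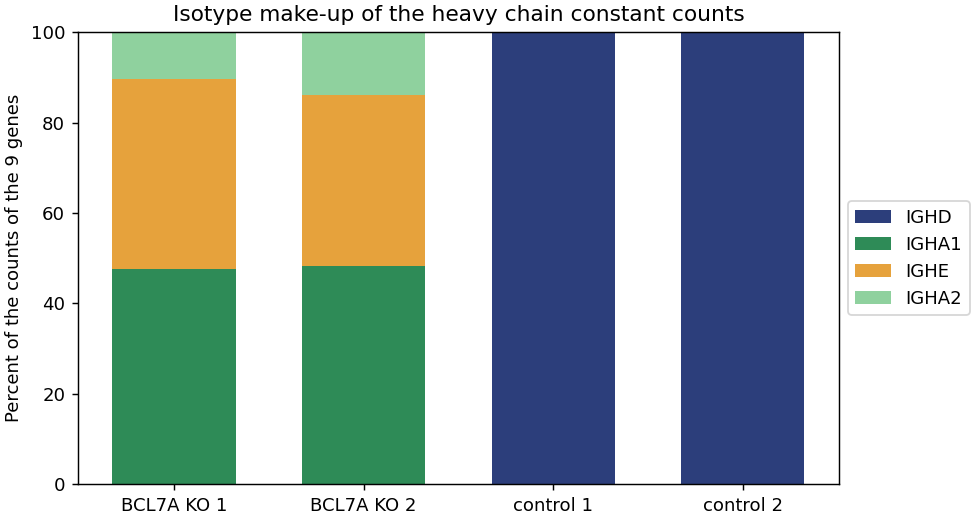
Percent of the summed counts of the 9 heavy chain constant genes (vertical axis, linear) held by each gene, with 1 bar per library; genes that stay under 1% in every library are not drawn. The control bars are almost entirely IGHD, and the KO bars divide among IGHA1, IGHE and IGHA2, on totals of 307 and 319 counts.

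Summed over the 9 genes, heavy chain constant RNA was 8.69 ± 0.0768 CPM in KO and 4690 ± 28.6 CPM in control (log2 fold change -9.08, SE 0.04, adjusted p = 4.18e-43 by edgeR). Without IGHD the sum was 8.74 and 8.63 CPM in KO and 8.23 and 7.43 CPM in control. That difference was not called (log2 fold change 0.15, SE 0.12, adjusted p = 0.266 by edgeR). The fall of the sum was thus that of IGHD, and its call adds no support of its own. The 9 genes took up 0.514% and 0.519% of all control counts, against 7.94e-04% and 7.82e-04% of KO counts. In bulk RNA, fewer cells that transcribe a gene and less RNA per cell cannot be told apart.

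Light chain RNA was higher in KO. The kappa constant gene IGKC had 116732 and 121749 counts in KO and 28194 and 33685 in control, or 3310 ± 20.5 against 1488 ± 41.7 CPM (log2 fold change 1.15, SE 0.02). Of the 10 light chain constant genes 4 were tested. IGKC, IGLC1 and IGLL5 rose and none fell, where 36.4% rose and 39.8% fell among all tested genes. The list median was 1.03 on the log2 scale, against -0.06 for all tested genes. IGLC2 was 1.77 ± 0.358 CPM in KO and 1.32 ± 0.0411 CPM in control (adjusted p = 0.195 by edgeR). IGLC1 lies within the annotated bounds of IGLL5, so their counts are uncertain. Kappa was 88.8% and 88.9% of light chain constant counts in KO, and 87.6% and 88.1% in control. IGKV3-15, a kappa variable gene named after its values were seen, amounted to 10.7% of IGKC counts in KO and 11.01% in control.

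KO held 428 and 429 light chain counts for each heavy chain count, whereas control held 2.80 and 2.74 heavy chain counts for each light chain count. Per kb of exon the heavy to light ratio was 8.45e-04 and 8.47e-04 in KO and 0.895 and 0.872 in control. An antibody pairs heavy and light chains in equal number. Per length, heavy and light chain RNA were at similar levels in control, while light chain RNA was in large excess in KO. For a line known to make IgA, the joint IGHA level was low in all 4 libraries, between 5.07 and 6.21 CPM.

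**Figure D4:**
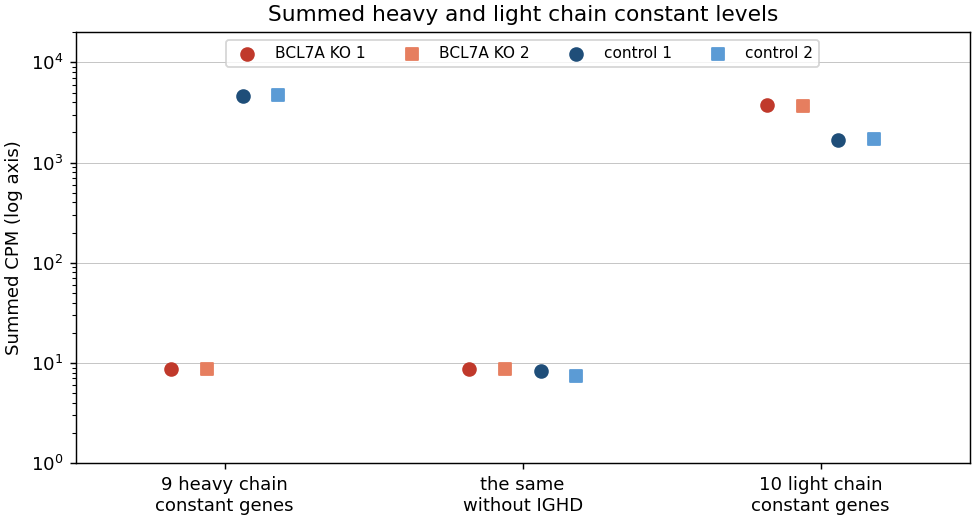
Summed CPM (vertical axis, logarithmic) of the 9 heavy chain constant genes, of the same genes without IGHD, and of 10 light chain constant genes, with 1 point per library, red shades for BCL7A KO and blue for control. The heavy chain sums average 8.69 CPM in KO and 4690 CPM in control and lie close together once IGHD is left out, and the light chain sums are higher in KO.

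The profile of IGHD over the 4 libraries was set against those of 14288 other genes averaging 1 CPM or more, by the Euclidean distance between centred log2(CPM + 0.5) values. The nearest was the heavy chain variable gene IGHV3-7, with 3304 and 3967 counts in control and 0 in KO (distance 4.74). CCR2, a chemokine receptor gene (0.193 ± 0.0716 CPM in KO, 204 ± 0.0736 CPM in control), and MTCO1P12, a mitochondrial pseudogene (4.28 ± 0.154 against 1256 ± 41.3 CPM), came next. MIAT, a long non-coding RNA (0.993 ± 0.357 against 263 ± 5.89 CPM), and QPCT, which encodes glutaminyl-peptide cyclotransferase (0.0142 ± 0.0201 against 80.3 ± 2.35 CPM), followed. For IGHA1, the most abundant of the 9 genes in KO, the nearest were CDK14, AP002990.1, CMC2, SCAMP1 and TFAP2A, at distances of 0.0618 to 0.0923. With 2 libraries a group, the measure mostly follows the difference between the groups.

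Variable genes of the locus (chromosome 14, 105583731 to 106879812, 195 genes with a row) showed the contrast of IGHD, mainly through a single gene. Together 126 variable genes and pseudogenes had 3 and 5 counts in KO and 3402 and 4063 in control. Only 14 of the 126 had any count. IGHV3-7 held most of the control counts (3304 and 3967), at 175 ± 5.51 CPM, at least 4207-fold higher than in KO. IGHV3-73, named after its values were seen, had 91 and 92 counts in control and 0 in KO. The leading variable gene in KO, IGHV3-23, had 0 and 3 counts there and none in control. The 25 diversity and 9 joining genes had 0 counts in every library. Whether the authors' counting could assign reads to them was not tested.

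Non-coding genes inside the locus did not all share that contrast. FAM30A, a long non-coding RNA named after its values were seen, was 388 ± 4.55 CPM in KO and 122 ± 2.83 CPM in control (log2 fold change 1.67, SE 0.03, adjusted p = 1.07e-26 by edgeR). The state of the locus in either group was not tested. LINC00221, which lies among the V segments and was likewise named afterwards, had 234 and 254 counts in control and 0 in KO, at least 282-fold higher in control.

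Genes beside the constant end of the locus were mostly lower in KO. All 19 were tested, 3 rose and 16 fell (36.4% and 39.8% among all tested genes), and their median was -0.88 on the log2 scale. MTA1, a subunit of a histone deacetylase complex, was 92.7 ± 0.0563 CPM in KO and 251 ± 2.37 CPM in control. CRIP1, a LIM domain protein gene, was 11.7 ± 0.556 against 70.8 ± 1.36 CPM, and PACS2, a sorting protein gene, 43.6 ± 0.290 against 125 ± 1.24 CPM. JAG2, a Notch ligand gene in the same stretch, rose (63.0 ± 0.0878 against 21.0 ± 0.0928 CPM). TMEM121, named after its values were seen, had 6 and 1 counts in KO and 136 and 147 in control. CRIP2, likewise named afterwards, had 3 and 2 counts in KO and 37 and 49 in control. Both passed the filter through control, which favoured their falls, so they add little to the count of falls.

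Genes that help assemble the heavy chain with its partners mostly rose. The list held 15 genes for retention in the endoplasmic reticulum, polymer assembly and the surface receptor complex. Of these 13 rose and 2 fell (36.4% and 39.8% among all tested genes, list median 0.43, log2). JCHAIN, the joining chain of polymeric IgA and IgM, was 5031 ± 21.5 CPM in KO and 2452 ± 59.96 CPM in control. MZB1, a chaperone of antibody assembly, was 652 ± 2.93 against 246 ± 0.825 CPM, and P4HB, protein disulfide isomerase, 1842 ± 7.58 against 869 ± 6.10 CPM. HSPA5 (BiP), which holds unpaired heavy chains, rose less (1643 ± 6.54 against 1370 ± 19.2 CPM). The 2 that fell were CD79A and PDIA6, a disulfide isomerase (484 ± 9.43 against 560 ± 3.80 CPM). CD79A, which with CD79B carries surface antibody of any class, had 4 and 8 counts in KO and 1602 and 1913 in control (log2 fold change -8.95, SE 0.13). CD79A was too low in KO to pass the filter there and was tested through control, which favoured its fall. CD79B rose, at 31.1 ± 1.67 against 18.6 ± 2.92 CPM.

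**Figure D5:**
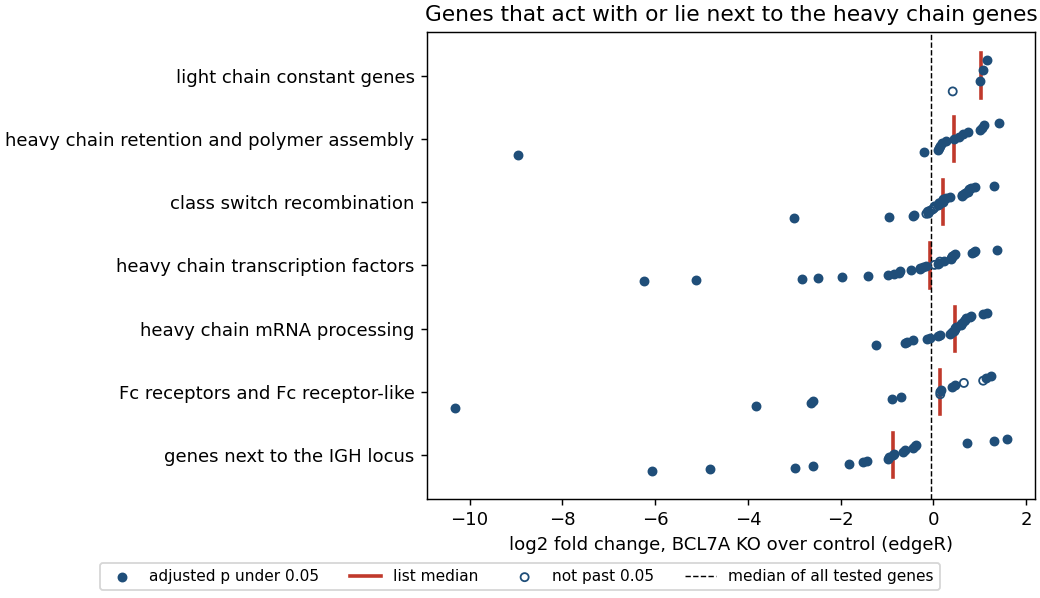
Log2 fold change of KO over control (horizontal axis) for each tested gene of 7 lists, filled where adjusted p was under 0.05 and open otherwise; red bars are list medians and the dashed line is the median of all tested genes, -0.06. Light chain, assembly and mRNA processing medians lie right of the line, and the median of the genes next to the locus lies left of it at -0.88.

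A list of 24 genes covered 3′ end formation and splicing of heavy chain mRNA, which set its membrane and secreted forms. Of these 18 rose and 6 fell (36.4% and 39.8% among all tested genes, list median 0.46, log2). ELL2, an elongation factor that favours the secreted form, was 471 ± 5.46 CPM in KO and 210 ± 2.92 CPM in control. HNRNPLL, a splicing regulator of plasma cells, was 156 ± 0.457 against 74.7 ± 3.02 CPM, and HNRNPH1, an RNA-binding protein, 609 ± 0.208 against 403 ± 3.07 CPM. ZNF318, whose mouse counterpart is needed to splice IGHD from the transcript it shares with IGHM, fell. It had 1331 and 1439 counts in KO and 1783 and 1989 in control (38.4 ± 0.738 against 90.9 ± 1.86 CPM; log2 fold change -1.24, SE 0.04), so it was present in both groups.

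Of 31 transcription factors and chromatin loop proteins that act at heavy chain promoters and enhancers, 30 were tested, and 13 rose and 15 fell (list median -0.07, log2). Among all tested genes 36.4% rose and 39.8% fell, with a median of -0.06, so these counts say little about the factors in particular. ETS1 was 9.04 ± 0.303 CPM in KO and 314 ± 0.0529 CPM in control. TCF4, an E protein, was 27.1 ± 0.654 against 194 ± 6.74 CPM, and SMAD3, which carries the TGF-beta signal for IgA switching, 27.7 ± 0.181 against 108 ± 1.83 CPM. XBP1, which drives antibody secretion, rose (1897 ± 6.04 against 1019 ± 5.80 CPM).

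Of 32 genes for class switching 31 were tested, and 18 rose and 5 fell (36.4% and 39.8% among all tested genes, list median 0.20, log2). The end-joining genes XRCC5 (547 ± 1.90 against 348 ± 11.5 CPM), XRCC6 (449 ± 6.94 against 295 ± 0.239 CPM) and PRKDC (1336 ± 14.7 against 867 ± 27.5 CPM) rose, as did SUPT5H, a transcription elongation factor (340 ± 3.36 against 184 ± 7.88 CPM). The list's biggest change was a fall, that of the transcription factor gene BATF (0.889 ± 0.0712 against 7.19 ± 1.25 CPM; log2 fold change -3.01, SE 0.21). RNF168, a ubiquitin ligase of the DNA damage response, also fell (23.4 ± 1.16 against 45.2 ± 2.37 CPM). Both were named after their values were seen.

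Of 20 Fc receptor and Fc receptor-like genes 15 were tested, and 5 rose and 6 fell (list median 0.15, log2), close to the 36.4% and 39.8% of all tested genes, so the counts say nothing particular about these receptors. FCGRT, the neonatal receptor that recycles IgG, had 0 and 1 counts in KO and 433 and 538 in control. FCER1G, named after its values were seen, had 3 and 2 counts in KO and 23 and 20 in control. Both passed the filter through control, which favoured their falls. FCGR2B, the inhibitory IgG receptor, was 3.52 ± 0.423 CPM in KO and 21.9 ± 0.777 CPM in control, and FCRLA 76.3 ± 0.112 against 123 ± 1.66 CPM. FCMR, the IgM receptor, rose (19.1 ± 1.45 against 8.05 ± 0.105 CPM). FCER2, the low-affinity IgE receptor, fell (1.64 ± 0.334 against 3.07 ± 0.197 CPM).

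Markers of cell types were set beside these results. Among all tested genes 36.4% rose and 39.8% fell. Of the 9 plasma cell markers all 9 rose, and their summed level was 11965 and 11953 CPM in KO and 6697 and 6757 CPM in control. Of 12 mature B cell markers 8 were tested, 1 rose and 6 fell, and their sum was 37.2 and 40.1 CPM in KO against 417 and 431 CPM in control. CD74 (266 ± 4.24 CPM), CD79A (84.5 ± 2.34), CIITA (25.1 ± 0.0623) and PAX5 (22.3 ± 0.0750) made up most of the control sum. MS4A1 (CD20), a defining B cell marker, had 5 and 0 counts in KO and 23 and 17 in control. PAX5 had 10 and 11 counts in KO. MS4A1, PAX5 and CD79A were too low in KO to pass the filter there. They were tested through control, which favoured a call as lower, so these falls add little.

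Markers of unrelated cells also differed. Of 10 T cell markers 6 were tested, 0 rose and 4 fell (sums of 15.7 and 15.8 CPM in KO, 31.3 and 32.0 in control), and CD3D was at 0 throughout. CD3E made up most of the T cell sum in both groups, at 13.9 ± 0.185 CPM in KO and 23.9 ± 0.665 CPM in control. Of 5 epithelial markers 4 were tested, 1 rose and 2 fell (11.99 and 12.6 against 66.1 and 70.9 CPM); EPCAM made up most of the control sum, at 52.9 ± 2.12 CPM, and was at 0 in KO. KRT8 fell too (1.35 ± 0.186 against 9.56 ± 1.08 CPM), while KRT18 rose (6.49 ± 0.316 against 1.93 ± 1.07 CPM), CDH1 was 4.46 ± 0.311 against 4.13 ± 1.23 CPM and was not called, and KRT19 was at 0 throughout. Of 4 erythroid markers 2 were tested and 1 fell (0.513 and 0.189 against 4.29 and 4.42 CPM); the control sum was mostly HBA1 (3.85 ± 0.101 CPM, 0 in KO), and HBB was not called (0.351 ± 0.228 against 0.481 ± 0.0212 CPM). Of 5 fibroblast markers 2 were tested and both fell (0.399 and 0.325 against 10.6 and 10.9 CPM), with LUM at 0 throughout. Of 9 myeloid markers 3 were tested, 2 rose and 1 fell (2.22 and 1.84 against 1.60 and 1.76 CPM), with MPO and ELANE at 0 throughout. EPCAM, HBA1 and the fibroblast marker COL1A2 had 0 counts in KO, and the myeloid marker CSF1R had 0 in control, so these 4 passed the filter through one group alone and had to be called. CD3G, CD4, CD8A and the myeloid marker ITGAM had at most 10 counts in a KO library and passed through control, which favoured their falls. The myeloid marker S100A9, with 6 and 4 counts in control, passed through KO, which favoured its rise. The sums for B cell, T cell, epithelial, erythroid and fibroblast markers were higher in control, as IGHD was, although the T cell, epithelial and erythroid sums each rested mainly on a single gene. Their part in the difference of IGHD was not tested.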

How the data were processed

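Poly(A) RNA of 4 libraries was analysed from 1 table of estimated counts (not normalized) that the authors deposited; the submitters' processing notes name Salmon 0.12 and GRCh38 (annotation, index and strand setting: not given in the sources used here). All values were whole. The 92 ERCC rows, with at most 2 counts in any cell, were left out. Genes passing filterByExpr (17885) were scaled with TMM and tested with edgeR 4.0.16 (robust quasi-likelihood fit, no covariate, all 4 libraries); p-values were adjusted by Benjamini-Hochberg. The SE is the absolute log2 fold change divided by the root of F. Alternatives included limma 3.58.1 (voom) and DESeq2 1.42.0. Bounds take 3 counts over the group, and intervals are exact at 95%. Coordinates, exon lengths and sequences came from GENCODE 29. The fit was tested on simulated data.

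The 9 genes and the 17 gene lists (224 entries, all matched by name) were chosen with earlier results of these data known. Named were the 9 genes, up to 4 members of a list by smallest p, the 5 nearest profiles of the top gene in each group and the top variable gene in each group. CD79B, PDIA6, HSPA5, IGLC2, TMEM121, CRIP2, FCER2, FCER1G, BATF, RNF168 and the markers with few or 0 counts were named after their values were seen. Values of some list members are not reported here.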

Additional observations from a re-analysis of the deposited data

How the results depend on the processing

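IGHE kept its direction and call under all 16 alternatives (log2 fold changes of 1.48 to 1.70). IGHD did so too (-20.18 to -18.36), and IGHG1 under each of the 11 that tested it alone (-6.72 to -5.04). With 0 counts in both KO libraries, IGHD and IGHG1 could not change direction, so their agreement across alternatives adds no support. IGHA1 and IGHA2 kept theirs under 15 of 16. With the pair summed the value was -0.14 (adjusted p = 0.407 by edgeR), opposite in sign to IGHA1, and 1 of the 9 genes rather than 2 was called higher. With no filter 5 rather than 3 were called lower, since IGHM and IGHG4 were then tested. With each library left out in turn, IGHA1 ranged from 1.10 to 1.56, IGHA2 from -2.20 to -1.68 and the number called lower from 2 to 3, because IGHG1 was not tested without either control library. The summed level was 0.15 without IGHD and lay between -9.21 and -9.06 under the other 10 of 11. In control the sum was almost entirely IGHD, so this agreement adds no support either. Per kb of exon, the heavy to light ratio moved from 0.00233 to 8.46e-04 in KO and from 2.77 to 0.884 in control. The same scaling gave IGHD 99.81% of control counts, and in KO gave IGHA1 50.4% and IGHE 37.0%; with pseudogenes IGHA1 was 47.4%. Members of the other lists called higher ranged from 69 to 92 (84 in the main comparison), and lower from 61 to 71 (65). With the replicate number as a block 6365 genes were called higher and 6922 lower, and no call among the 9 genes changed. Deviations of same-numbered libraries correlated at -0.198 over 9537 genes, and no label pairs them; a crossed block, added after the data were seen, called 6416 and 6943. Under upper-quartile factors the median of all tested genes was -0.19 instead of -0.06 (log2), with 5510 called higher and 8110 lower instead of 6506 and 7123. Depth limits the KO shares, which rest on 307 and 319 counts.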

Other observations

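Genes that myeloma translocations place beside the heavy chain locus were described apart from the comparisons above. All 7 of this list were tested, and 4 rose and 2 fell (36.4% and 39.8% among all tested genes, list median 0.23, log2). FGFR3, a growth factor receptor gene, had 7489 and 8104 counts in KO and 1463 and 1779 in control (216 ± 4.29 against 77.9 ± 3.15 CPM). NSD2, a histone methyltransferase gene named after its values were seen, was 1194 ± 12.6 CPM in KO and 1017 ± 21.9 CPM in control. Both partners of the translocation known from this line were thus read in all 4 libraries. MAF, a transcription factor gene, was 165 ± 0.453 against 41.7 ± 1.30 CPM, and CCND3, a cyclin gene, 38.8 ± 0.353 against 17.2 ± 0.334 CPM. CCND1, which encodes cyclin D1, fell (151 ± 1.12 against 538 ± 5.32 CPM; log2 fold change -1.83, SE 0.03).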
